A study of Mus musculus with 2 samples.

Results

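Sonic hedgehog (Shh) is the ligand that the lower hair follicle uses to drive its own downward growth, and the cells described here are those in which its transcript was counted and few mitotic genes were. They were single-cell barcodes from mouse dorsal skin with 200 to 8000 detected genes, mitochondrial genes at no more than 10% of unique molecular identifiers (UMIs, each a counted transcript molecule), at least 1 Shh UMI, fewer than 3 of 7 cell cycle genes (Mki67, Top2a, Knl1, Aspm, Kif14, Neil3 and Cenpf) with a UMI, and Col1a1, Col1a2 and Col3a1 together below 20 per 10000 UMIs. This rule found 1065 of 42244 barcodes that passed the gene and mitochondrial limits in the control library (Con) and 290 of 20045 in the library of mice given testosterone propionate (TP), 1355 of 62289 in all. Both groups were male C3H/HeN mice, 7 weeks old at the start and 9 weeks old at harvest. Con mice received vehicle, and TP mice received 0.5 mg of testosterone propionate a day under the skin, a model of androgenetic alopecia. Each library was a pool of 15 mice, so each group is 1 sample. No comparison between the groups has a replicate check, and every interval given is a 95% interval that covers counting error only.

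The libraries differed in depth. Con held 126023483 UMIs over its passing barcodes, with a median of 2162 per barcode, and TP held 156376139, with a median of 5166. Within the Shh-positive cells the medians were 2316 UMIs in Con and 6547 in TP. In all, 303 barcode sequences occurred in both libraries, 11 Shh-positive cells carried one of them, and 1 such sequence was Shh-positive in both.

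In the growing follicle, Shh is made by a group of cells on the flank of the hair bulb, next to the dermal papilla, among the proliferating matrix cells that give rise to the hair shaft and the inner root sheath. The secreted ligand binds the receptor Ptch1, which frees Smo and lets the Gli factors switch on targets such as Gli1, Ptch1 and Hhip. WNT signalling through Lef1 and the ectodysplasin receptor Edar with NF-kB act upstream of Shh in follicle formation, and BMP signalling drives matrix cells to differentiate.

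The label of hair matrix cells was only partly borne out by the markers that go with it. Hoxc13 and Msx2, transcription factors of the matrix and of differentiating hair cells, had a UMI in 12.8% and 13.1% of Shh-positive cells in Con, against 14.6% and 12.9% of all other barcodes. In TP the shares were 20.3% and 23.8%, against 13.2% and 11.05%. Lef1, the WNT-dependent transcription factor of the matrix, had a UMI in 66.9% of Shh-positive cells and 54.9% of the rest in Con, and in 72.4% and 35.1% in TP. None of these 3 genes was detected in 29.1% of the cells in Con and 23.8% in TP. Among the cells with 3 or more Shh UMIs, 79 in Con and 49 in TP, Lef1 had a UMI in 87.3% and 91.8%. Hoxc13 had one in 16.5% and 28.6%, and Msx2 in 20.3% and 24.5%. These cells were deeper, with medians of 3920 and 8753 UMIs. Per 1000000 UMIs, Lef1 was at 846 and 777 in them, 790.0 and 499.6 in all Shh-positive cells and 720 and 277 in the rest. All cells that met the rule are therefore called Shh-positive cells below.

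The strongest partners of Shh included its own neighbours on mouse chromosome 5. Shh itself (ENSMUSG00000002633) lies at chr5:28456840-28467101 in GRCm38. The long non-coding gene 9530036O11Rik, at chr5:28466984-28719209, shares 118 bases with the start of Shh. Its level in CPM, counts per 1000000 of the UMIs summed over cells, was 97.5 in Con and 48.1 in TP, against 13.3 and 3.47 in all other barcodes. Rnf32, a RING finger gene at chr5:29192745-29227635, begins 726 kb beyond Shh. It was at 87.9 CPM in Con and 55.1 CPM in TP, against 16.3 and 6.52 CPM in all other barcodes. Both genes were thus several times higher in the Shh-positive cells of each library, with log2 ratios to the other barcodes of 2.88 in Con and 3.80 in TP for 9530036O11Rik and of 2.43 in Con and 3.09 in TP for Rnf32. Reads at the overlap of Shh and 9530036O11Rik may be assigned to either gene, and the strand setting of the counting is not given in the sources used here.

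Promoter sequence was searched for short motifs in the 20 leading genes and the 20 genes that were highest in cells with more Shh UMIs, 36 genes in all since 4 were in both groups. RefSeq windows of 250 bases before the start, in GRCm38.p6, were matched for 26 of them. The NF-kB letters GGGAATTTC, like all sets here read on both strands, occurred in 1 of the 26, Kremen2, and in 77 of all 32851 windows (0.234%). The NF-kB letters GGGACTTTC occurred in 1 of the 26, Aim2, and in 0.289% of all windows. The GLI letters GGGTGGTC occurred in Icam1 alone of the 26 and in 0.703% of all windows. Of the LEF/TCF letters, ATCAAAG occurred in none (3.21% of all windows) and TTCAAAG in Gm20275 and Tchh (4.46%). No window of the 26 held more than 1 of these sets of letters. The windows of Kremen2, Aim2 and Icam1 are shown because they held the rarer letters, given in capitals. The Kremen2 window is chr17:23745830-23746079 on the minus strand, with the letters 242 to 234 bases before the start. The Aim2 window is chr1:173420354-173420603 on the plus strand, with the letters on the same strand, 154 to 146 bases before the start. The Icam1 window is chr9:21015690-21015939 on the plus strand, with the GLI letters on the other strand, 119 to 112 bases before the start. A match describes these letters in these windows and nothing more.
Kremen2: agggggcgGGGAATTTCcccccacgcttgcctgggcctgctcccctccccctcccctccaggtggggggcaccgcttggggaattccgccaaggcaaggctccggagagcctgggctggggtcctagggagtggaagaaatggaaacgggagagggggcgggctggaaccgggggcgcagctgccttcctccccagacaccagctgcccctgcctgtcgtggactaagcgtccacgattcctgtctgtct
Aim2: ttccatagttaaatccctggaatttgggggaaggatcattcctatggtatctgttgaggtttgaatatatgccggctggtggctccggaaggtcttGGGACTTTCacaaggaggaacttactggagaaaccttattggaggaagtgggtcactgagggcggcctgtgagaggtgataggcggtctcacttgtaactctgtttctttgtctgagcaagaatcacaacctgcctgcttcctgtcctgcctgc
Icam1: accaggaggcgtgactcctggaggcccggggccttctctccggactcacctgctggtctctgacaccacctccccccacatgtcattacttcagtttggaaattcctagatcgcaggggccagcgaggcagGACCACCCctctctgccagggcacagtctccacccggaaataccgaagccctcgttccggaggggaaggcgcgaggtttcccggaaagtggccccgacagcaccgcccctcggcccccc

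Most Shh-positive cells held a single Shh UMI. In Con, 829 cells had 1, 157 had 2, 55 had 3 or 4 and 24 had 5 or more, with a highest count of 9. In TP the numbers were 190, 51, 29 and 20, with a highest count of 10. A level of 439 CPM in Con and 200.1 CPM in TP follows from the rule together with the depth, and is a description. Over all passing barcodes Shh was at 25.1 CPM (24.3 to 26.0) in Con and 9.43 CPM (8.95 to 9.92) in TP.

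Some barcodes of cell types that should lack Shh also held a Shh UMI, which sets the background for a single count. Barcodes were thinned to 2000 UMIs each, leaving out 18918 shallower barcodes in Con and 3003 in TP. At this depth 3.94% (3.69 to 4.19) of Con and 1.44% (1.27 to 1.63) of TP barcodes had a Shh UMI. Among barcodes with inner root sheath keratins and Tchh at 50 or more per 10000 UMIs, the shares were 5.60% (5.04 to 6.20) and 3.60% (2.61 to 4.84). Suprabasal epidermal barcodes, chosen in the same way, gave 1.59% (1.23 to 2.01) and 0.501% (0.358 to 0.681), and dermal papilla barcodes, with 3 or more papilla genes, 1.51% (1.14 to 1.97) and 0.355% (0.115 to 0.826). Immune barcodes gave 2.48% (0.514 to 7.07) in Con, from 3 of 121, and 0.665% (0.137 to 1.93) in TP, from 3 of 451. Melanocyte barcodes gave 4.15% (2.48 to 6.48) in Con, from 18 of 434, and 1 of 156 in TP. Endothelial barcodes gave 2 of 63 in Con and 0 of 107 in TP, where 3 counts would be 2.80%.

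The inner root sheath share thus stood above the suprabasal and papilla shares in both libraries beyond counting error, while the immune and melanocyte intervals held the share of all barcodes in both. Without thinning, a Shh UMI was in 5.76% of inner root sheath barcodes in Con (median 1669 UMIs) and 8.62% in TP (median 4986), and in 5.19% and 1.28% of immune barcodes (medians 2286 and 4476). A cell with 1 Shh UMI in Con therefore cannot be told apart from background on that count alone. At 2000 UMIs, the rule with 2 or more Shh UMIs was met by 104 of all 23326 barcodes in Con (0.446%) and 42 of 17042 in TP (0.246%). It was met by 40 of 6177 and 6 of 1166 inner root sheath barcodes, 4 of 4159 and 2 of 7990 suprabasal barcodes and 1 of 3576 and 1 of 1410 papilla barcodes. Of melanocyte barcodes 1 of 434 and 0 of 156 met it, and of immune barcodes 0 of 121 and 0 of 451, numbers too small to set against the share of all barcodes.

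**Figure D1:**
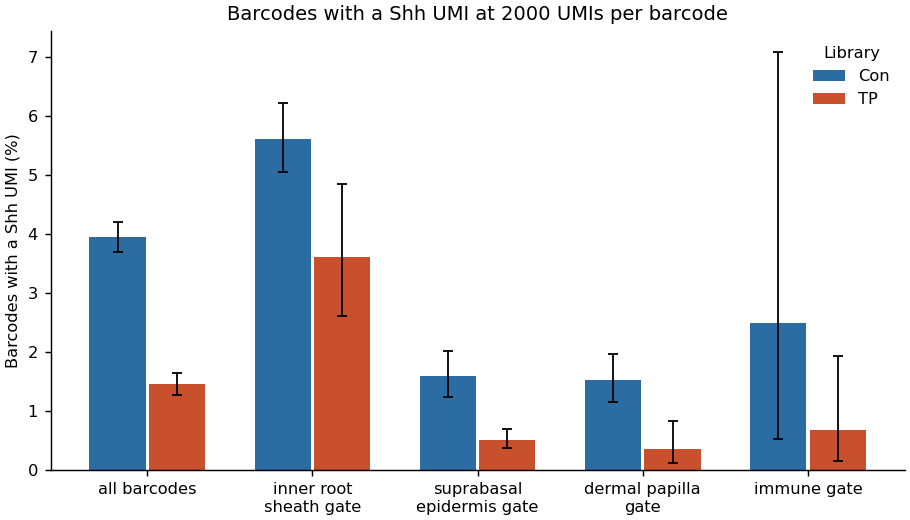
Share of barcodes with at least 1 Shh UMI (percent, y axis) after thinning each barcode to 2000 UMIs, for all passing barcodes and for barcodes chosen by marker genes (x axis), in Con (blue) and TP (orange). Error bars are 95% Clopper-Pearson intervals of counting error; inner root sheath barcodes reach 5.60% in Con and 3.60% in TP, and suprabasal barcodes 1.59% and 0.501%.

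The Shh-positive cells were mixed in the markers they carried. In Con, 53.9% of them passed the inner root sheath limit and 15.02% the suprabasal limit. In TP the order was the other way round, with 25.9% and 39.3%. The order changed over all passing barcodes as well. There 16034 and 8563 of 42244 passed these limits in Con, and 1427 and 10382 of 20045 in TP. A limit of any of 5 other types (suprabasal, papilla, melanocyte, immune or endothelial) was passed by 21.97% of the cells in Con and 44.5% in TP. Of all passing barcodes, 13472 of 42244 in Con and 12226 of 20045 in TP passed one, a larger share in both. Of the cells with 3 or more Shh UMIs, 6 of 79 in Con and 10 of 49 in TP did so. The summed level of the 6 suprabasal markers was 6275 CPM in Con and 22259.7 CPM in TP, below the 7344 and 24856 CPM of the other barcodes of the same library. It was at 1989 and 8899 CPM in the cells with 3 or more Shh UMIs.

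The other marker lists set the Shh-positive cells among the follicle layers. The 8 inner root sheath markers were together at 10314 and 6517 CPM, against 5128 and 1998 CPM in the other barcodes of Con and TP, and stood furthest above the rest of all lists in both libraries. The 6 markers of basal epidermis and outer root sheath were at 1662 and 2356 CPM, against 2415 and 4663 CPM. The 4 bulge markers were at 335 and 305 CPM, against 473 and 698 CPM, and the 10 hair shaft genes at 408 and 152 CPM, against 586 and 221 CPM. The basal, bulge and hair shaft lists were thus lower in the Shh-positive cells of both libraries. The 4 upper follicle markers were at 435 and 1237 CPM, against 529 and 1635 CPM, and the 4 sebocyte markers at 479.9 and 543 CPM, against 461 and 555 CPM. The 6 endothelial markers were at 16.8 and 10.7 CPM, against 17.3 and 23.4 CPM, the 4 Schwann markers at 5.998 and 2.96 CPM, against 12.7 and 8.62 CPM, and the 4 markers of sheath, pericyte and smooth muscle at 34.2 and 16.3 CPM, against 87.5 and 141 CPM. The 4 Merkel cell markers were below 1 CPM in both libraries, and the 3 companion layer and medulla markers, Krt75, Krt6a and Krt6b, at 23.4 and 23.7 CPM.

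Against all other barcodes, the inner root sheath list had the highest median log2 ratio in the Shh-positive cells, 0.45 in Con and 0.94 in TP, with 8 in Con and 9 in TP of its 10 counted genes above. Hedgehog production and release, which holds Shh itself, was at 0.29 in Con and 0.75 in TP, and the EDAR pathway at 0.30 in Con and 0.26 in TP. WNT ligands were at 0.15 in Con and 0.24 in TP, with 6 in Con and 6 in TP of 10 above, and WNT reception at -0.07 in Con and 0.18 in TP. Adhesion genes, at -0.06 in Con and -0.11 in TP with 7 in Con and 6 in TP of 21 above, and WNT inhibitors, at -0.49 in Con and -0.46 in TP, did not lie above the other barcodes as lists. The single genes described next are those with the largest ratios or a named role in a pathway, so they do not stand for their lists. Of 9798 genes with at least 50 UMIs in the Shh-positive cells of both libraries together, 79 (0.806%) were at least 2-fold higher than in the other barcodes in both libraries and 122 (1.25%) at least 2-fold lower. Since the cells were chosen by Shh, cell cycle and collagen UMIs of the same cells, these counts and the ratios that follow describe the cells and were not tested. All log2 ratios are of CPM with 1 UMI added to each sum.

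On the receiving side, Ptch1, the main receptor and itself a hedgehog target, was not higher, at 153 CPM in Con and 164 CPM in TP, against 193 and 173 CPM in all other barcodes. Hhip, a decoy that binds the ligand at the cell surface, was lower, at 80.7 CPM in Con and 43.3 CPM in TP, against 162 and 109.6 CPM in all other barcodes. Gli1, the transcription factor that responds most directly to the ligand, was near the level of the other barcodes, with log2 ratios of -0.05 in Con and 0.05 in TP. The 9 counted genes of hedgehog reception had a median log2 ratio over the other barcodes of -0.63 in Con and -0.63 in TP.

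For release of the ligand, Scube1, a secreted protein of a family that takes up lipid-bearing hedgehog from the producing cell, was at 178 CPM in Con and 86.2 CPM in TP, against 93.6 and 28.95 CPM in all other barcodes. Disp1, the transporter that exports it, was at 32.99 CPM in Con and 23.3 CPM in TP, against 22.6 and 12.7 CPM in all other barcodes. Hhat, the enzyme that adds its fatty acid, differed little from the rest, with log2 ratios of 0.08 in Con and -0.11 in TP. Ihh and Dhh, the other hedgehog ligands, had 0 UMIs in the Shh-positive cells of both libraries, which leaves room for up to 3 UMIs of each per library.

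On the WNT side, Kremen2, a receptor for Dkk inhibitors, was at 65.98 CPM in Con and 55.5 CPM in TP, against 15.9 and 12.3 CPM in all other barcodes. Its paralogue Kremen1 was at 183 CPM in Con and 112 CPM in TP, against 109 and 69.7 CPM in all other barcodes. The ligand Wnt6 was at 41.1 CPM in Con and 29.6 CPM in TP, against 13.03 and 9.17 CPM in all other barcodes. Wnt10b, a ligand of follicle induction, was at 35.99 CPM in Con and 16.6 CPM in TP, against 11.9 and 5.06 CPM in all other barcodes. Wnt5a, a non-canonical ligand, differed less, with log2 ratios of 0.70 in Con and 0.72 in TP, and Wnt4 lay at or below the other barcodes, with -0.07 in Con and -0.24 in TP. Edar, the ectodysplasin receptor, was at 56.4 CPM in Con and 47.7 CPM in TP, against 23.3 and 11.8 CPM in all other barcodes, and Relb, an NF-kB subunit, had log2 ratios of 0.97 in Con and 0.75 in TP.

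The other leading genes included several that encode surface or secreted proteins. Alcam, an adhesion molecule of the immunoglobulin family, was at 995 CPM in Con and 652 CPM in TP, against 281 and 173 CPM in all other barcodes. Cdh6, a cadherin, was at 3542 CPM in Con and 1409 CPM in TP, against 945 and 152 CPM in all other barcodes. Ptn, the secreted growth factor pleiotrophin, was at 499 CPM in Con and 352 CPM in TP, against 161 and 126 CPM in all other barcodes. Sema6a, a transmembrane semaphorin, had log2 ratios of 1.43 in Con and 2.06 in TP. The scaffold gene Anks1b had 3.12 in Con and 2.91 in TP, the ganglioside enzyme gene St8sia1 2.25 in Con and 3.43 in TP, and Lypd6, a membrane-anchored protein of the Ly6 family, 1.96 in Con and 2.49 in TP. Tchh, trichohyalin of the inner root sheath and medulla, was at 4528 CPM in Con and 2479.6 CPM in TP, against 1127 and 415 CPM in all other barcodes, and the inner root sheath keratin Krt73 had log2 ratios of 1.43 in Con and 1.95 in TP. Gm20275, Tbc1d9, Adamts17, Aim2 and Tspear, also among the leading genes, had log2 ratios between 1.41 and 2.39.

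**Figure D2:**
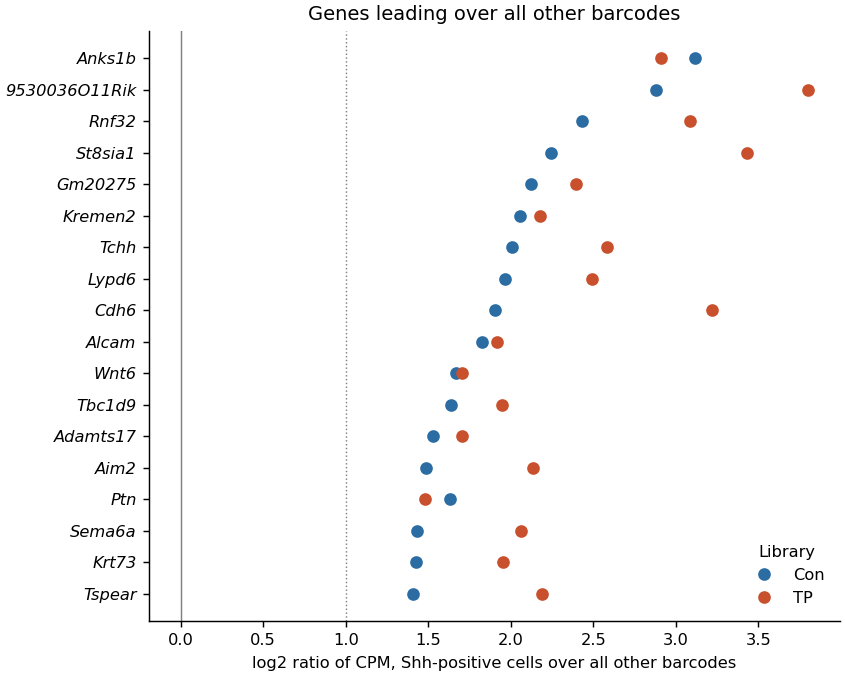
Log2 ratio of CPM in Shh-positive cells over all other barcodes (x axis) for 18 of the leading genes, without Shh (y axis), in Con (blue) and TP (orange). Each point is 1 library; the dotted line marks 2-fold, and all points lie beyond it, from 1.41 for Tspear in Con to 3.80 for 9530036O11Rik in TP.

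Some of the leading signalling genes and the inner root sheath genes separated when the Shh-positive cells were divided by their Shh UMIs. Cells with 1, 2 and 3 or more Shh UMIs had medians of 2203, 2636 and 3920 UMIs in Con and 5785, 6097 and 8753 in TP, so depth went up with the Shh count, and its part in what follows was not tested. Levels are CPM in each class and do not grow with depth by construction. Of 9372 genes with at least 50 UMIs in these classes, 190 (2.03%) were at least 2-fold higher with 3 or more Shh UMIs than with 1 in both libraries and 349 (3.72%) at least 2-fold lower.

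Kremen2 was at 40.9, 98.3 and 200.5 CPM in Con and 31.7, 62.9 and 146 CPM in TP in cells with 1, 2 and 3 or more Shh UMIs. In the same order, Alcam was at 764, 1312 and 2205 CPM in Con and 384, 866 and 1548 CPM in TP. Both were higher at each step in both libraries. Ptn was at 324, 622 and 1626 CPM in Con and 200.5, 396 and 933 CPM in TP. Scube1 was at 129.6, 218 and 476 CPM in Con and 30.6, 168 and 237 CPM in TP. Kremen2, Ptn and Scube1 were among 20 genes chosen for being higher with 3 or more than with 1 Shh UMI. That they were so thus follows from the choice. Alcam, a leading gene outside the 20, was also highest in the cells with the most Shh.

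Ligands and receptors of other pathways were mixed. Of 10 counted WNT ligands, 9 in Con and 8 in TP were higher with 3 or more than with 1 Shh UMI, and of 11 EDAR pathway genes 6 in Con and 9 in TP. The numbers were 5 in Con and 9 in TP for 14 genes of WNT reception, 3 in Con and 3 in TP for 6 BMP ligands, 7 in Con and 4 in TP for 10 Notch genes and 1 in Con and 1 in TP for 5 fibroblast growth factor ligands and receptors. The genes that follow were taken from the 20 highest or by role, and so from those with this order. Wnt6 was at 30.3, 33.4 and 138 CPM in Con and 14.7, 41.9 and 78.9 CPM in TP, and Wnt10b at 26.99, 36.9 and 103 CPM in Con and 8.74, 25.6 and 40.6 CPM in TP. Edar was at 40.5, 80.8 and 135 CPM in Con and 21.8, 62.9 and 139.7 CPM in TP. Tnf, a cytokine gene that can act through NF-kB, was at 9.40, 28.1 and 59.5 CPM in Con and 13.1, 39.6 and 67.6 CPM in TP, on only 19 UMIs in Con and 30 in TP in the highest class. Nfkbia, the inhibitor that NF-kB induces, was at 139, 169 and 382 CPM in Con and 248, 317 and 672 CPM in TP. Tnfrsf19, a receptor of the same family as Edar, was at 259 with 1 and 551 CPM with 3 or more Shh UMIs in Con, and at 185 and 629 CPM in TP. Wif1, a secreted WNT inhibitor, went from 353 to 1081 CPM in Con and from 145 to 852 CPM in TP. Icam1, whose window is printed above, went from 12.7 to 43.9 and from 21.3 to 108 CPM, with 27 of its 48 UMIs in the highest TP class in 1 cell. Also among the 20 highest were the protease gene Adamts3, the glutamate receptor gene Gria3, the lactate dehydrogenase gene Ldhb, the profilin gene Pfn2, and Necab1, Tmem229a, Gdpd5, Ap1s2, Psmc3ip and Mapk4, with log2 ratios between 1.86 and 2.78 in Con and between 1.97 and 4.29 in TP.

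Most counted cell cycle genes outside the rule were also higher with 3 or more Shh UMIs, in cells chosen to hold fewer than 3 of the 7 mitotic genes. Mcm6, a subunit of the replicative helicase, was at 42.9 CPM with 1 and 125 CPM with 3 or more Shh UMIs in Con and at 34.4 and 108 CPM in TP. Ccnd2, the G1 cyclin D2, was at 527 and 1181 CPM in Con and 246 and 852 CPM in TP. Of 30 counted cell cycle genes outside the rule, 24 in Con and 28 in TP were higher with 3 or more Shh UMIs, with median log2 ratios of 0.60 and 1.31, beside 0.05 and 0.13 over all genes.

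The inner root sheath genes did not follow Shh. Tchh was at 4429, 5781 and 3048 CPM in Con and 2525, 2212 and 2551 CPM in TP. Cdh6, which had led the set with them, was at 3261, 4913 and 3249 CPM in Con and 1036, 2039 and 2339 CPM in TP, so that it went up with Shh in TP and not in Con. Krt71 was at 1249, 1150.2 and 645 CPM in Con and 883, 503 and 324 CPM in TP, and Krt25 went from 2423 to 1253 CPM in Con and from 1864 to 1217 CPM in TP. Of the 10 counted genes of the inner root sheath, 3 in Con and 3 in TP were higher with 3 or more Shh UMIs. Hedgehog targets were also uneven. Ptch1 was at 154 and 175 CPM in Con and 128 and 198 CPM in TP with 1 and with 3 or more Shh UMIs, and Gli1 at 27.8 and 31.3 and at 15.3 and 18.03 CPM. The genes that were lowest with 3 or more Shh UMIs included Serpinb2, Myof, Tns1, Sytl2, Hal, Homer2, Il6ra and Adamts1. Their log2 ratios lay between -3.15 and -2.28, on at most 28 UMIs in that class.

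**Figure D3:**
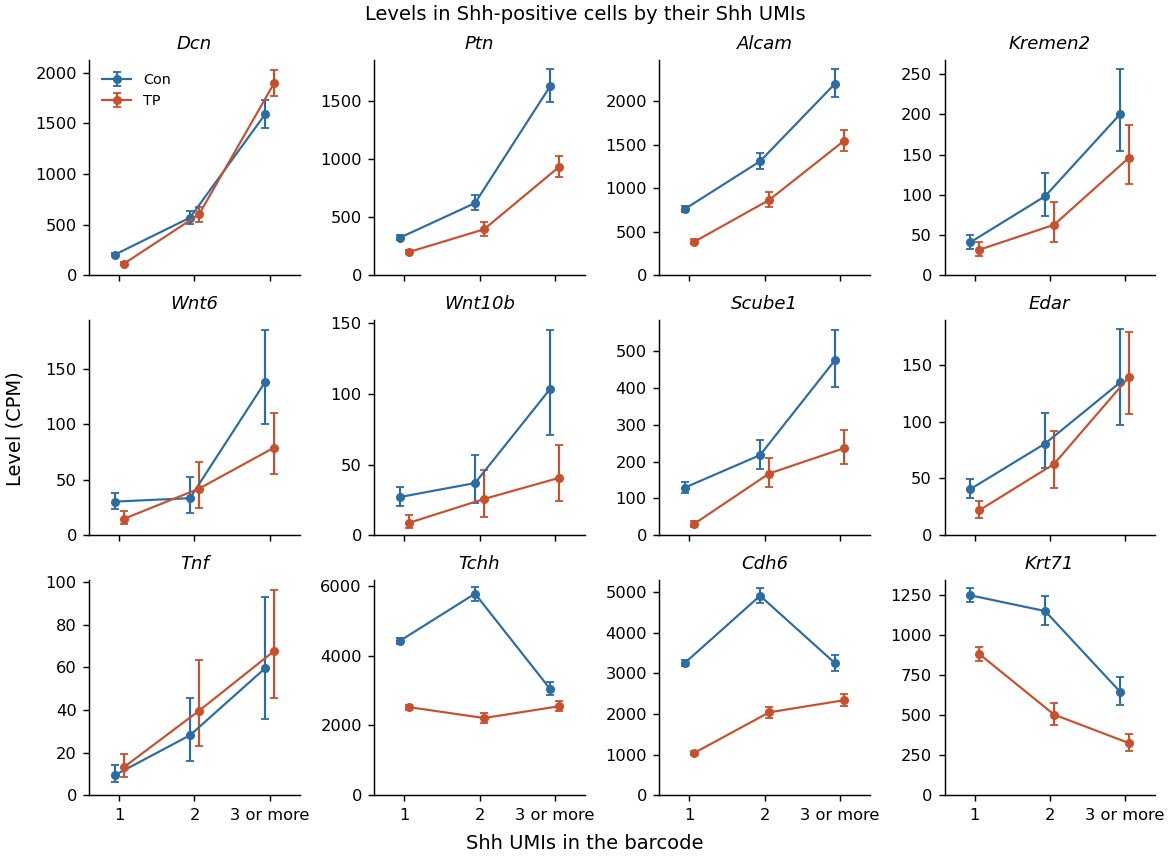
Levels of 12 genes (CPM of summed UMIs, y axis) in Shh-positive cells with 1, 2 and 3 or more Shh UMIs (x axis) in Con (blue) and TP (orange), with 95% Poisson intervals of counting error. Dcn, Ptn, Alcam, Kremen2, Wnt6, Wnt10b, Scube1, Edar and Tnf are highest in the class with the most Shh UMIs in both libraries, while Tchh and Krt71 show no such order and Cdh6 shows it in TP alone. Of the genes that are highest there, all but Alcam and Edar were chosen by the ratio of 3 or more to 1 Shh UMI.

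Ranked by the smaller of the ratios in Con and TP between 3 or more and 1 Shh UMI, the first gene was Dcn, which encodes decorin, a collagen-binding proteoglycan best known from fibroblasts. It was at 204, 569 and 1588 CPM in Con and 115, 601 and 1895 CPM in TP in cells with 1, 2 and 3 or more Shh UMIs. Dcn had 2 or more UMIs in 62 of 829 (7.48%), 33 of 157 (21.02%) and 35 of 79 Con cells (44.3%) and in 16 of 190 (8.42%), 15 of 51 (29.4%) and 30 of 49 TP cells (61.2%). In both libraries more cells carried Dcn the more Shh they held.

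Other stromal and papilla genes, apart from Lum in Con, were far below their level in papilla barcodes, and in Con several of the papilla genes lay mostly in the cells with Dcn. In cells with 3 or more Shh UMIs, Lum, a related proteoglycan gene of fibroblasts, had 1 UMI (3.13 CPM) in Con and 0 in TP. In papilla barcodes it was at 1.15 and 20.2 CPM. Pdgfra, the fibroblast receptor gene, was at 18.8 CPM in Con and had 0 UMIs in TP. Col1a1, which the rule holds down together with Col1a2 and Col3a1, was at 21.9 and 40.6 CPM. Barcodes with 3 or more papilla genes held Dcn at only 88.8 and 201 CPM, with Pdgfra at 128 and 148 and Col1a1 at 172 and 473 CPM. Of the papilla markers, Corin was at 135 CPM in Con and 2.25 CPM in TP in the cells with 3 or more Shh UMIs, against 2073 and 1210.5 CPM in the papilla barcodes. The level of Dcn in the cells with 3 or more Shh UMIs was thus far above that in papilla barcodes, while Pdgfra and Corin were far below. Of the UMIs in the Con cells with 3 or more Shh UMIs, those with 2 or more Dcn UMIs held 37 of 43 for Corin, 42 of 47 for Crabp1, 46 of 56 for Vcan, 28 of 39 for Rspo3 and 21 of 24 for Col3a1. Over all genes they held 168095 of 319210 UMIs. Nearer to that share were Col1a2 with 15 of 23, Col1a1 with 4 of 7, Pdgfra with 4 of 6 and Krt5 with 78 of 122. Corin was at 220.1 CPM, Crabp1 at 249.9, Vcan at 274 and Col3a1 at 125 CPM in those Con cells, against 135, 147, 175 and 75.2 CPM in the whole class. In TP, Corin and Rspo3 had 1 UMI each, and Crabp1 had 17 of 18 and Vcan 13 of 17 UMIs in the cells with Dcn. Those TP cells held 273117 of 443768 UMIs over all genes. The part of papilla RNA in the Dcn counts was not tested. Krt5, a keratin of basal keratinocytes, was at 382 and 615 CPM in the cells with 3 or more Shh UMIs, against 311 and 349 CPM in papilla barcodes and 684 and 1253 CPM in all other barcodes. Its partner Krt14 was at 241 and 624 CPM, against 424 and 613 CPM and 942 and 2247 CPM, so Krt14 did not set these cells above papilla barcodes.

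Few cells held both high Dcn and high Tchh, and each was itself uncommon. In Con, 130 of 1065 cells had 2 or more Dcn UMIs, 192 had Tchh at 50 or more per 10000 UMIs, and 10 had both. In TP the numbers were 61, 33 and 2 of 290. No test was run on this overlap, and with both uncommon a small overlap does not by itself set them apart. Within the cells with 3 or more Shh UMIs, Cdh6 was at 3249 CPM in Con and 2339 CPM in TP over all of them, and at 1243 and 648 CPM in those with 2 or more Dcn UMIs. Lef1 hardly differed between the same sets, at 846 and 839 CPM in Con and 777 and 779.9 CPM in TP.

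**Figure D4:**
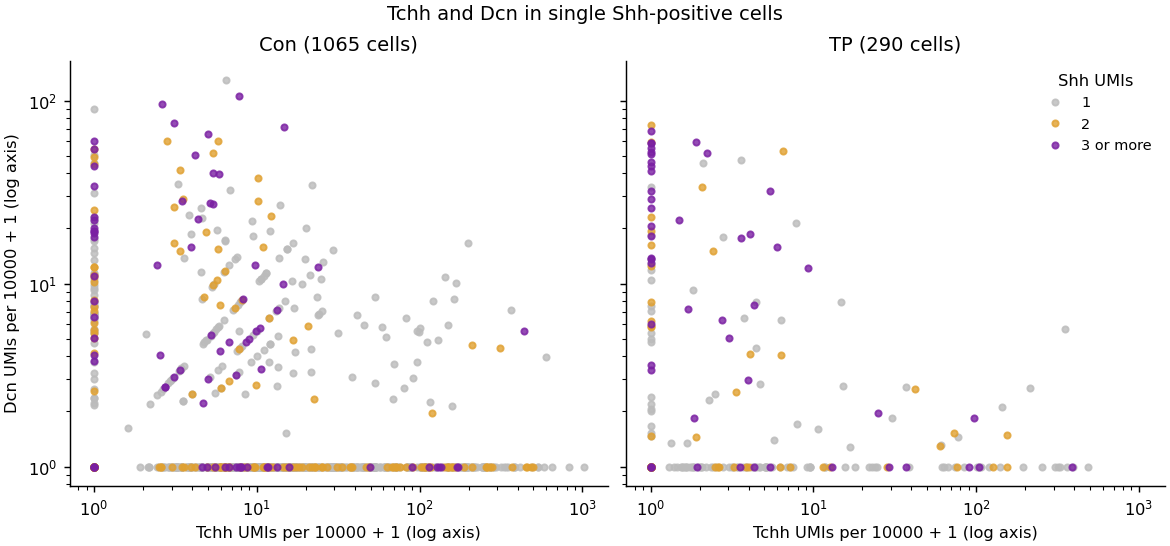
Tchh (x axis) and Dcn (y axis) in single Shh-positive cells, as UMIs per 10000 plus 1 on log axes, for Con (left, 1065 cells) and TP (right, 290 cells), coloured by the number of Shh UMIs. In the corner where both are high, 10 Con and 2 TP cells lie past both limits named in the text. Past the Dcn limit lie 130 Con and 61 TP cells, and past the Tchh limit 192 and 33.

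The cycling Shh-positive barcodes, 971 in Con and 283 in TP, met the same limits but had 3 or more of the 7 cell cycle genes. They made up 47.02% of the Shh-positive barcodes that passed in Con and 49.05% in TP. They were deeper, with medians of 3937 and 11208 UMIs. In the non-cycling cells, 64 genes (0.653%) were at least 2-fold higher in both libraries and 141 (1.44%) at least 2-fold lower. The lower ones began with Mki67, Top2a and Cenpf, which the rule used, and went on with the histone genes Hist1h2ap and Hist1h1b, the spindle genes Prc1 and Cenpe, and Diaph3. Tchh was higher in the non-cycling cells, at 4528 against 1234 CPM in Con and 2479.6 against 1093 CPM in TP. Krt2 and Sprr1a, genes of differentiating epidermis, were also higher, with log2 ratios of 1.22 and 2.29 for Krt2 and of 1.84 and 1.97 for Sprr1a. Areg, an epidermal growth factor receptor ligand, had 1.22 and 2.19, and Lypd6, Apod, Nav3 and Rspo2 were the others among the 8 largest.

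Matrix barcodes without Shh were taken as those with the same limits, no Shh UMI and a UMI of at least 2 of Hoxc13, Msx2 and Lef1, 4290 in Con and 1590 in TP. Against these, 107 genes (1.09%) were at least 2-fold higher in the Shh-positive cells in both libraries and 92 (0.939%) at least 2-fold lower. Cdh6 was at 3542 against 822 CPM in Con and 1409 against 286 CPM in TP. Edar was at 56.4 against 9.58 and 47.7 against 7.26 CPM. Kremen2 was at 65.98 against 9.13 and 55.5 against 9.79 CPM, and Anks1b, Rnf32, St8sia1 and the channel-interacting gene Kcnip1 were higher as well.

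Keratins of the hair shaft were lower than in those Shh-negative matrix barcodes. That set was chosen by genes of the matrix and of differentiating hair cells, and it held Hoxc13 at 344 CPM in Con and 226 CPM in TP. The Shh-positive cells held it at 67.8 and 50.7 CPM. The part of this choice in the keratin difference was not tested. All 5 counted of 15 listed were at least 2-fold lower in both libraries, with a median log2 ratio of -2.18 in Con and -3.80 in TP. Krt35, the early keratin of the hair cortex and cuticle, was at 266 against 1206 CPM in Con and 111 against 682 CPM in TP. S100a3, a calcium-binding protein of the hair cuticle, was at 136 against 631 and 287 against 988 CPM. Adh6b, Gpnmb, Kcnh1, Fabp4 and Fap were the others among the 8 largest besides Hoxc13, which had chosen the comparison set.

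Values just inside and just outside the limits of the rule are given as a description. At the Shh limit, cells with 1 Shh UMI had Kremen2 at 40.9 CPM in Con and 31.7 CPM in TP, and barcodes with 0 had 10.7 and 9.13 CPM. At the cell cycle limit, Shh-positive barcodes with 2 of the 7 genes had Kremen2 at 75.01 and 81.3 CPM, and those with 3 had 78.7 and 91.7 CPM. At the collagen limit, 12 Con and 6 TP cells lay between 15 and 20 per 10000 UMIs and 5 Con and 0 TP barcodes between 20 and 25.

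The share of barcodes that met the rule was lower in TP than in Con. The ratio depended on how many Shh UMIs were asked for. The cells were 2.52% of Con (2.37 to 2.68) and 1.45% of TP (1.29 to 1.62), a ratio of 0.574 (0.502 to 0.654). With at least 2 Shh UMIs the ratio was 0.893 (0.700 to 1.13). With at least 3 it was 1.31 (0.896 to 1.89), from 79 Con and 49 TP cells. When each barcode was thinned to 2000 UMIs, the ratio was 0.417 (0.347 to 0.500) with 1 Shh UMI and 0.553 (0.377 to 0.798) with 2 or more. At equal depth both shares were thus lower in TP. The share with a Shh UMI was also lower in TP in suprabasal barcodes (1.59% and 0.501%) and papilla barcodes (1.51% and 0.355%) at this depth. The part of this background in the ratio was not tested. After thinning 518 Con and 158 TP barcodes met the rule, while 417 and 119 of the first Shh-positive cells kept a Shh UMI, so other barcodes came in. With at least 2 of Hoxc13, Msx2 and Lef1 also required, without thinning, the ratio was 1.01 (0.789 to 1.29). All 1065 and 290 Shh-positive cells were also set against the 7675 Con and 2958 TP barcodes with at least 2 of those markers. That ratio was 0.707 (0.618 to 0.805). Only 206 and 99 of the cells held 2 or more of the markers, so it is not a ratio of shares. A share of barcodes also moves with all the other cells of a library, and whether the number of Shh-positive cells per follicle differed was not measured.

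Within the Shh-positive cells, Flg, Cnfn and Sprr1b, genes of the outer epidermis, were among the 12 largest rises in TP, and 6 melanocyte genes among the 12 largest falls. The 5 melanocyte markers together stood at 320.3 CPM in Con and 27.7 CPM in TP. Of 9798 genes, 451 (4.6%) had at least 2-fold more in TP and 454 (4.63%) at least 2-fold less, with a median log2 ratio of -0.21. With the TMM normalization factors of edgeR, which moved that median to -0.01, 605 were higher and 277 lower, so the higher share of the calls went from 49.8% to 68.6%. Of the genes called in the Shh-positive cells, 338 of 451 (74.9%) and 224 of 454 (49.3%) were also past 2-fold in the same direction in all other barcodes. The same share over all genes was not counted, so these values have no background beside them. With 1 library a group none of these differences could be tested.

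Several of the largest differences sat in a few cells. Ccl8, a chemokine of macrophages, had 10 UMIs in Con and 422 in TP, of which 373 were in 1 cell. Mrc1, Lyz2 and C1qa, also macrophage genes, had 124, 125 and 96 UMIs in TP, with 89, 49 and 48 in the cell that held most. The 8 immune markers were together at 55.2 CPM in the Shh-positive cells of Con and 141 CPM in TP, against 58.2 and 216 CPM in all other barcodes, and at 15.7 and 36.1 CPM in those with 3 or more Shh UMIs. With at least 2 Shh UMIs the log2 ratios of Ccl8 and C1qa were 0.70 and 0.03, against 5.57 and 3.58 over all Shh-positive cells.

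Genes of the outer layers of the epidermis were spread over more cells. Flg, the filaggrin precursor, had 3 UMIs in 3 Con cells and 113 UMIs in 32 TP cells (46.4-fold, 15.5 to 229). Cnfn had 5 and 121 UMIs in 4 and 36 cells, and Sprr1b 13 and 155 UMIs in 6 and 37 cells. In all other barcodes the log2 ratios of TP over Con were 4.06 for Flg, 3.13 for Cnfn and 4.16 for Sprr1b, beside 5.14, 4.65 and 3.78 in the Shh-positive cells. Without cells past a limit of another type, a filter that itself takes out cells rich in suprabasal genes, Flg had 1 UMI in Con and 6 in TP. The share of cells past the suprabasal limit moved with these genes, as given above, and its part was not tested. Also among the 12 largest, Wfdc21 had a log2 ratio of 3.66, which was 1.02 after thinning each cell to 1000 UMIs, 1.03 with at least 2 Shh UMIs and -0.48 with at least 3. The last value is what equal numbers of UMIs in both libraries give, from their unlike totals alone. Dnase1l3, a nuclease gene known from macrophages and dendritic cells, had 3.22, from 22 UMIs in 12 Con cells and 173 in 43 TP cells.

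Abi3bp, an extracellular matrix protein, and Slc7a2, a transporter of cationic amino acids, were among the 12 largest rises. Abi3bp was at 27.3 CPM in Con and 437 CPM in TP (16.00-fold, 12.9 to 20.03), from 91 UMIs in 42 cells and 1181 UMIs in 53 cells, and the TP cell with most held 144. Its log2 ratio was 3.99, against 2.19 in the other barcodes and 4.85 without cells past another type's limit. Slc7a2 had 14 UMIs in 13 Con cells and 298 in 37 TP cells, with log2 ratios of 4.62, 2.25 and 5.83 in the same order. In the cells with at least 2 Shh UMIs the log2 ratios fell to 2.63 for Abi3bp and 2.31 for Slc7a2, beside 2.19 and 2.25 in the other barcodes. Lgr5, the stem cell receptor for R-spondins, was at 10.2 CPM in Con and 56.95 CPM in TP, with 2.45, 0.93 and 3.02. All of them were lower inside than outside the inner root sheath limit in TP, with Abi3bp at 2.39 and 631 CPM, Slc7a2 at 0 and 159 CPM and Lgr5 at 3.59 and 80.8 CPM.

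Among the genes that were lower in TP, 6 of the 12 largest belong to melanocytes. Tyr, tyrosinase, had 104 UMIs in 38 Con cells and 1 UMI in TP (0.0119-fold, 0.000297 to 0.0675). Oca2, which encodes a melanosome membrane protein, had 102 UMIs in 31 Con cells and 1 in TP. Dct had 603 UMIs in Con, 234 of them in 1 cell, and 42 in TP. Pmel, Mlana and Tyrp1 had log2 ratios of -3.65, -3.28 and -3.06, against -0.33, -0.32 and -0.83 in the other barcodes. After thinning each cell to 1000 UMIs Tyrp1 was at -0.56 and Pmel and Mlana at -2.75 and -3.33. Tyrp1 was then not past 2-fold, but the 1 UMI added to each sum weighs more in TP there and moves genes with few UMIs upward. In the cells with 3 or more Shh UMIs, Tyrp1 and Mlana were both at -0.48, which equal numbers of UMIs in both libraries give from the unlike totals alone. The 5 melanocyte markers had only 29 UMIs in Con and 18 in TP in that class. The 5 melanocyte markers together were at 320.3 CPM in Con, near the 380.0 CPM of the other Con barcodes, and at 27.7 CPM in TP, against 243. In Con, 13 Shh-positive cells passed the melanocyte limit of 3 genes, and in TP 0 did. Without cells past any other type's limit, a filter that itself takes out cells rich in melanocyte genes, Tyr and Dct had log2 ratios of -2.87 and -1.65.

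The other 6 were mixed. Ndnf, a secreted protein used here as a papilla marker, had 253 and 15 UMIs, in 65 and 8 cells. Tmem132c was at 78.3 CPM in Con and 9.25 CPM in TP, Ncam2, an adhesion molecule gene, at 45.6 CPM in Con and 6.66 CPM in TP, and Ptgds, prostaglandin D2 synthase, at 60.9 CPM in Con and 2.59 CPM in TP. Nusap1, a mitotic spindle gene outside the rule, had 99 UMIs in 86 cells and 6 in 6, with a log2 ratio of -3.53, and of -2.21 after thinning each cell to 1000 UMIs. With no limit on mitotic genes in the rule it was -0.14. Fabp4, a fatty acid binding protein, was at 56.4 CPM in Con and 5.92 CPM in TP. The 6 papilla markers together were at 637 and 412 CPM in the Shh-positive cells, and at 1351 and 787 CPM in the rest.

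The cells with 3 or more Shh UMIs, where suprabasal markers were scarcest, gave fewer differences. With medians of 3920 UMIs in Con and 8753 in TP, this fixed count asked for a lower Shh level in TP. Of 3194 genes counted there, 82 (2.57%) were past 2-fold upward in TP and 65 (2.04%) downward, with a median log2 ratio of -0.06. Of the 12 largest rises, which began with Abi3bp, Egr1 and Calm4, 6 were immediate early genes, which cells switch on within minutes of a stimulus or of tissue dissociation. Egr1 had 22 UMIs in 16 of 79 Con cells and 342 UMIs in 40 of 49 TP cells, with at most 2 and 33 in 1 cell. Fos had 55 UMIs in 18 of 79 Con cells and 435 UMIs in 36 of 49 TP cells, Fosb 12 UMIs in 8 of 79 Con cells and 120 UMIs in 23 of 49 TP cells, and Klf6 7 UMIs in 7 of 79 Con cells and 83 UMIs in 29 of 49 TP cells. Btg2 had 10 UMIs in 7 of 79 Con cells and 99 UMIs in 33 of 49 TP cells, and Nr4a1 5 UMIs in 4 of 79 Con cells and 54 UMIs in 21 of 49 TP cells. All of these genes were spread over more TP than Con cells, and their log2 ratios in this class lay between 2.49 and 3.42, against 1.52 to 2.13 in the other barcodes. Calm4, Krt79, Chl1, Ly6g6c and Anxa8 were higher too, and Calm4 and Krt79 had 245 of 516 and 51 of 82 UMIs in 1 cell, as Abi3bp had 128 of 175.

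Several of the largest falls in TP among these cells came from few Con cells. Sostdc1, a secreted inhibitor of WNT and BMP signals, had 100 UMIs in 9 of 79 Con cells and 9 UMIs in 5 of 49 TP cells, of which 58 were in 1 Con cell. Apod had 64 UMIs in 4 Con cells and 0 in TP, at least 29.7-fold lower against a floor of 3 UMIs, with 38 of the 64 in 1 cell. Fgf7 and Fgf10, papilla growth factors, had 36 and 32 UMIs in 8 and 3 Con cells and 0 in TP, at least 16.7-fold and 14.8-fold lower. Dcc, the netrin receptor, had 82 UMIs in 7 Con cells and 1 UMI in TP, and Gpnmb 66 UMIs in 9 Con cells, 53 of them in 1 cell, and 2 UMIs in TP. Kit, the stem cell factor receptor, and Krt35 were spread over more cells. Kit had 54 UMIs in 31 of 79 Con cells and 18 UMIs in 12 of 49 TP cells, and Krt35 41 UMIs in 31 of 79 Con cells and 13 UMIs in 9 of 49 TP cells. Anks1b had 52 UMIs in 24 of 79 Con cells and 17 UMIs in 9 of 49 TP cells, and Vcan, Nckap5, Crabp1, Hip1r and Gli3 had log2 ratios between -2.14 and -1.51. The 6 papilla markers were together at 614 CPM in Con and 83.4 CPM in TP in this class, and their part in these differences was not tested.

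Of the 20 genes that were highest with more Shh UMIs, 15 differed by less than 2-fold between the libraries within the cells with 3 or more, 3 were at least 2-fold lower in TP and 2 higher. Over the 3194 genes counted in that class, 2.04% were lower and 2.57% higher. Those genes needed 50 UMIs in the class and the 20 only 25, and genes with fewer UMIs pass 2-fold more easily. The shares are thus not directly comparable. The log2 ratios of TP over Con with 3 or more Shh UMIs were -0.45 for Kremen2 and 0.25 for Dcn, and 0.04 for Edar, which is not among the 20. Ptn and Wnt6 were both at -0.80. Scube1 (0.497-fold, 0.384 to 0.641) and Wnt10b (0.392-fold, 0.208 to 0.717) were at least 2-fold lower, as was Ap1s2, with a log2 ratio of -1.19. The class is a fixed Shh count in libraries of unlike depth, with medians of 3920 UMIs in Con and 8753 in TP. The same count is a lower Shh level in TP, and these 20 genes were chosen for going up with Shh. The part of this in their differences was not tested. Tmem173, the innate immune adaptor also called STING, was higher (3.02-fold, 1.11 to 10.3), on 5 and 21 UMIs. Icam1 was higher as well, on 14 and 48 UMIs, of which 27 were in 1 TP cell.

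Of the 7 counted genes of hedgehog production and release, 4 were at least 2-fold lower in TP within the Shh-positive cells and 0 higher, with a median log2 ratio of -1.04. Shh is 1 of the 4, and its level follows from the rule. Without it, 3 of 6 were lower, with a median of -0.76, beside -1.03 in the other barcodes and -0.21 over all genes. In the same cells thinned to 1000 UMIs each, without those that had fewer, the median of these 6 genes was -0.23 and that of all genes -0.02, and of the 4 that still had 50 UMIs 1 was at least 2-fold lower. With 967 Con and 286 TP cells left, the 1 UMI added to each sum weighs more in TP. It moves genes with few UMIs upward, so these medians do not show that equal depth removes the difference. Scube1 was at 178 CPM in Con and 86.2 CPM in TP (0.484-fold, 0.415 to 0.565), and Scube2 at 97.5 CPM in Con and 25.5 CPM in TP (0.262-fold, 0.199 to 0.340). Hhat had 42 and 16 UMIs, a log2 ratio of -1.04. Adam17, a sheddase, was the 1 gene of the 7 above 0, at 0.53.

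Reception, transcription and targets of the pathway showed less. None of the 9 counted genes of reception was past 2-fold, with a median of 0.01, and none of the 8 of transcription, with a median of -0.50. Ptch1 was at 153 CPM in Con and 164 CPM in TP. Gli1 was at 29.4 CPM in Con and 17.4 CPM in TP, and Gli3, the source of the main repressor, at 170.4 CPM in Con and 104 CPM in TP. Of 9 counted targets, Sox9 alone was past 2-fold, higher in TP with 15 and 39 UMIs, and the median was -0.04. The log2 ratio of Gli1 was -0.74 in the Shh-positive cells and -0.83 in the other barcodes.

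Of 10 counted WNT ligands and their carriers, Wnt10b was past 2-fold, lower in TP at 35.99 CPM in Con and 16.6 CPM in TP (0.462-fold, 0.321 to 0.656), and the median was -0.34. Wls, which carries WNT proteins to the surface, was at 414 CPM in Con and 249 CPM in TP, and Wnt5a at 116 CPM in Con and 91.7 CPM in TP. Of 14 counted genes of WNT reception, Lgr5 was past 2-fold and higher, and of 13 of transcription and targets, Axin2, a feedback target, was past 2-fold and lower, at 90.6 CPM in Con and 40.3 CPM in TP (0.445-fold, 0.354 to 0.556). Lef1 was at 790.0 CPM in Con and 499.6 CPM in TP, against 720 and 277 CPM in all other barcodes. The median of the 13 genes of transcription and targets was -0.22, against -0.68 in the other barcodes. Of 6 counted WNT inhibitors 3 were lower, Sostdc1 at 259 CPM in Con and 123 CPM in TP, Sfrp1 at 98.4 CPM in Con and 25.9 CPM in TP and Sfrp2 at 18.9 CPM in Con and 6.29 CPM in TP, and 0 higher, with a median of -0.89 against -0.83 in the other barcodes.

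Each BMP list had 1 to 3 genes past 2-fold. Of 6 counted ligands, Inhba, the activin A subunit, was lower at 77.1 CPM in Con and 25.1 CPM in TP, and Bmp4 was at 56.98 CPM in Con and 49.6 CPM in TP. Of 17 genes of reception and targets, Id1 and Id4, targets of BMP signals, were higher, with Id1 at 40.2 CPM in Con and 126 CPM in TP (3.13-fold, 2.55 to 3.85), and Acvr2b was lower. Sostdc1 and Fstl1 were the 2 of 6 BMP antagonists past 2-fold, both lower. None of 11 counted genes of the Edar and NF-kB pathway was past 2-fold, although Nfkbia came close at a log2 ratio of 0.97. Of 10 counted Notch genes, Heyl was lower. Of 5 counted fibroblast growth factor ligands and receptors, Fgf7 and Fgf10 were lower, and of 6 response genes Dusp6 was higher. These counts of 0 to 3 per list stand beside 4.6% higher and 4.63% lower over all genes.

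Differentiation genes differed by layer. All 5 counted hair shaft keratins were lower in TP, with a median of -1.70 against -1.02 in the other barcodes. Krt35 was at 266 CPM in Con and 111 CPM in TP (0.418-fold, 0.366 to 0.477), and Krt31 at 25.8 CPM in Con and 4.44 CPM in TP. None of 10 counted inner root sheath genes was past 2-fold, with a median of -0.45 against -0.91. Tchh was at 4528 CPM in Con and 2479.6 CPM in TP and Krt25 at 2382 CPM in Con and 1717 CPM in TP. Of the companion layer and medulla genes, Krt17 and Krt16 were higher and Krt75 lower, with Krt17 at 211 CPM in Con and 502 CPM in TP. Their median was 1.25, against 1.40 in the other barcodes and 0.52 with 3 or more Shh UMIs. The share of cells past the suprabasal limit, 15.02% in Con and 39.3% in TP, moved with Krt17 and Krt16, and its part was not tested. Of 30 matrix transcription factors, Sox9, Dlx5, Lhx2 and Klf4 were higher and 0 lower, and Msx2, Hoxc13 and Lef1 had log2 ratios of -0.34, -0.42 and -0.66. In all other barcodes Msx2 was at 50.8 CPM in Con and 21.6 in TP, Hoxc13 at 79.2 and 45.6, and Lef1 at 720 and 277. The median of the 30 genes was -0.28, against -0.18 in the other barcodes. Of 21 adhesion genes, 1 was higher and 3 lower among Gja1, Dsg4, Jup and Ncam1, with Dsg4, the desmoglein of the hair shaft, at 44.7 CPM in Con and 12.6 CPM in TP.

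Immediate early genes were the list with the largest difference. Of 21, 14 were past 2-fold and higher in TP, and 0 lower, with a median of 1.85, against 1.54 in the other barcodes and 1.73 in the cells with 3 or more Shh UMIs. Fos was at 434 CPM in Con and 1625 CPM in TP, Atf3 at 145 CPM in Con and 776 CPM in TP, and Btg2, an antiproliferative gene, at 60.9 CPM in Con and 421 CPM in TP. Fosl1 was among the 12 largest rises of all genes, with 13 UMIs in 9 Con cells and 140 in 46 TP cells. The same list was thus higher throughout the library, and whether the dissociation of the tissue differed between the libraries was not measured.

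MHC class I genes were also higher. Of 12 counted, 6 were past 2-fold and 0 lower, with a median of 0.95 against 0.89 in the other barcodes. B2m was at 269 CPM in Con and 623 CPM in TP (2.31-fold, 2.13 to 2.51), and H2-K1 at 187 CPM in Con and 428 CPM in TP, although the H2 genes are close copies of each other whose reads may be divided among them. In cells with 3 or more Shh UMIs the median was 0.27. Among the Shh-positive cells, immune markers were at 55.2 CPM in Con and 141 CPM in TP, and suprabasal markers at 6275 and 22259.7 CPM. Their part in the MHC values was not tested. Of 12 counted genes known to respond to steroid hormones, 4 were higher and 0 lower, with a median of 0.58 against 0.51 in the other barcodes. Zbtb16 was at 22.5 CPM in Con and 137 CPM in TP (6.10-fold, 4.75 to 7.93), with 4.12 on the log2 scale without cells past another type's limit and 2.10 in the other barcodes. Tsc22d3 was at 32.7 CPM in Con and 73.6 CPM in TP, Klf9 at 26.99 CPM in Con and 56.95 CPM in TP, and Cebpd had 15 and 36 UMIs. None of 5 counted genes of steroid conversion was past 2-fold.

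Of 30 cell cycle genes outside the rule, 8 were at least 2-fold lower in TP and 0 higher, with a median of -0.47 against -0.53 in the other barcodes. Ccnb1, a mitotic cyclin, was at 17.4 CPM in Con and 4.44 CPM in TP. Pcna, the replication clamp, was at 82.8 CPM in Con and 96.5 CPM in TP, and none of 8 counted CDK inhibitor and arrest genes was past 2-fold, with Cdkn1a at 261 CPM in Con and 463 CPM in TP. In the same cells thinned to 1000 UMIs each, the median of the 30 genes was -0.07, and none of the 15 that still had 50 UMIs was past 2-fold. Those 15 had a median of -0.24 before thinning, and the genes with fewer UMIs could no longer be called. The 1 UMI added to each sum also weighs more in TP after thinning and moves genes with few UMIs upward. Its part in the smaller median was not tested. Of 13 heat shock genes, Hspb1, Dnajb1 and Bag3 were higher, and of 8 interferon-stimulated genes Ifi27 and Irf1. None of 13 glycolysis genes was past 2-fold, with a median of 0.48. Of 24 guidance genes 1 was higher and 3 lower, and of 16 growth factor genes Areg and Hbegf, both ligands of the epidermal growth factor receptor, were higher.

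**Figure D5:**
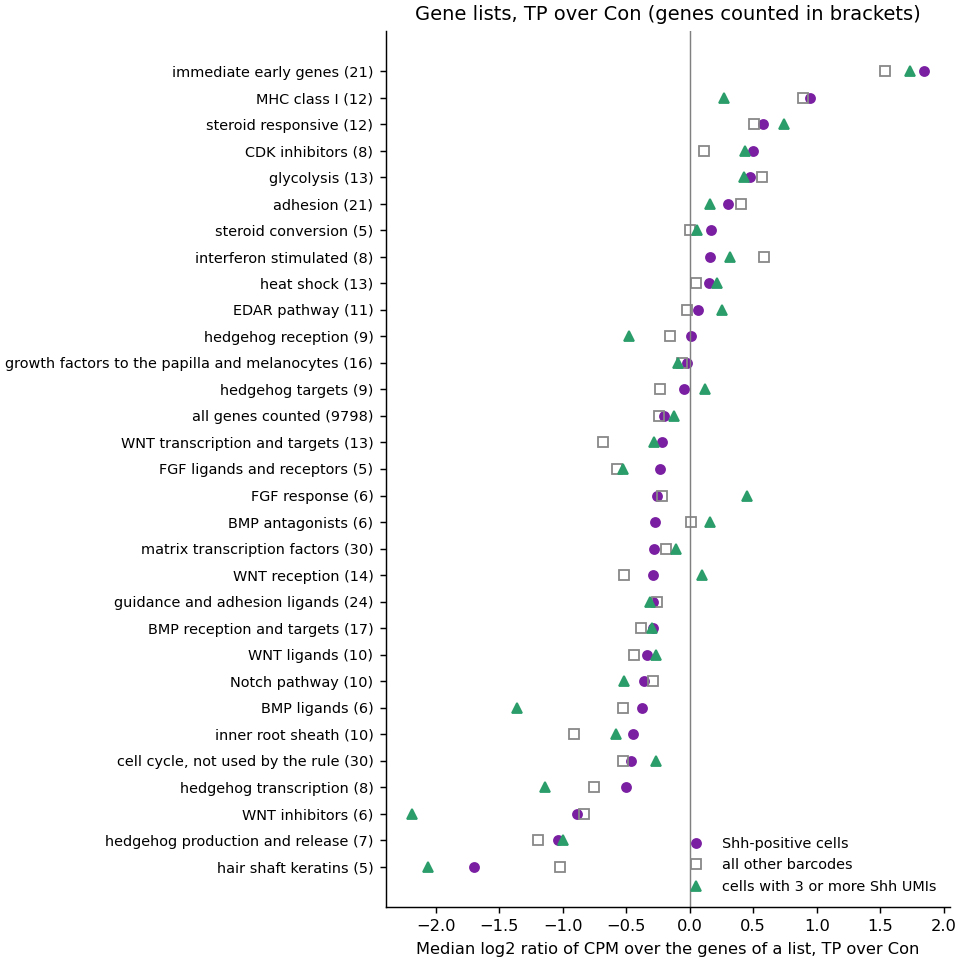
Median log2 ratio of CPM, TP over Con (x axis), over the counted genes of each gene list with at least 5 of them (y axis, number of genes in brackets) in Shh-positive cells (purple circles), all other barcodes (open squares) and the cells with 3 or more Shh UMIs (green triangles, which rest on few UMIs for many genes). Immediate early genes lie highest at 1.85 and hair shaft keratins lowest at -1.70 in the Shh-positive cells, with all genes at -0.21. The cell cycle genes that the rule used, with 4 counted and a median of -1.72, and the companion layer and medulla genes, with 3 counted, are not drawn.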

How the data were processed

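Single cells were profiled in dorsal skin of 2 groups of mice, Con and TP, with 1 library each and the 10x Genomics 3' chemistry. The counts were deposited by the authors as gene by barcode tables of whole UMIs from Cell Ranger 8.0.1, filtered for cell barcodes and aligned to the mouse build GRCm38 per the labels. Limits on genes and mitochondrial share and the removal of doublets followed in the study after these files, so both limits were applied here, and no doublet caller was run. A further group of the study, given an antibody, was not analysed here.

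The members were found by the rule in the text, and their UMIs were summed per library and divided by the total to give CPM, computed here from the deposited counts. A gene was called at 2-fold or more in CPM after adding 1 UMI, counting genes whose UMIs over both libraries came to 50 or more. With 1 library a group there is no test, no p-value and no spread between animals. Levels carry exact Poisson intervals, ratios carry intervals from the exact binomial of 1 count given the sum, and shares carry Clopper-Pearson intervals. A count of 0 allows up to 3 UMIs. Thinning drew a fixed number of UMIs per barcode without replacement. The method was tested on simulated data with known changes. The members, gene lists and marker lists were chosen with earlier results of these data known. Marker limits were 50 per 10000 UMIs for the suprabasal and inner root sheath lists and 3 genes with a UMI for papilla, melanocyte, immune and endothelial lists.

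Genes named in the text are the 4 markers and the rule's genes, the 12 largest differences each way between TP and Con with at least 100 UMIs (without mitochondrial genes and unnamed gene models), the 20 leading genes over the rest with at least 200 UMIs, the 8 largest each way against cycling and against Shh-negative barcodes, and genes of the lists that were past 2-fold, among the 3 highest or described by role. A gene named by these choices is not reported here. The 20 highest and 8 lowest genes by Shh UMIs, the 12 largest differences each way in cells with 3 or more Shh UMIs, the neighbours of Shh, the promoter motifs and the classes by Shh UMIs were added after seeing the data. TMM factors came from edgeR 4.0.16 (R 4.3.3), figures from matplotlib 3.10.9 and all else from scipy 1.17.1, pandas 2.3.3 and numpy 2.4.6 under Python 3.11.15. Sequences are from RefSeq.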

Additional observations from a re-analysis of the deposited data

How the results depend on the processing

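No paired analysis was possible because each group is 1 library. For the same reason no library could be left out, and no result has an error between animals. The TP over Con ratio of the share of Shh-positive cells, 0.574, was 0.893 with at least 2 Shh UMIs and 0.378 and 0.417 after thinning to 1000 and 2000 UMIs. It was 0.707 per barcode with at least 2 of Hoxc13, Msx2 and Lef1, which is no share since most of the cells lack 2 of them. Without cells past another cell type's limit it was 0.408, over all 42244 Con and 20045 TP barcodes. Those still held the 13472 Con and 12226 TP barcodes past such a limit. The ratio was 1.01 (0.789 to 1.29) with at least 2 of Hoxc13, Msx2 and Lef1 in the cells and 1.31 (0.896 to 1.89) with at least 3 Shh UMIs. Both intervals held 1, and both settings were without thinning. Under the other 8 settings it lay between 0.552 and 0.617. The cause was not tested, and the settings with 3 Shh UMIs, with thinning and 2 Shh UMIs together and without other types were chosen after seeing the data.

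The 451 genes higher and 454 lower in TP became 605 and 277 with TMM factors, 139 and 165 after thinning each cell to 1000 UMIs, and 608 and 805 with a minimum of 20 UMIs. They were 220 and 117 with a minimum of 200 UMIs, 123 and 109 with at least 2 Shh UMIs, 271 and 186 with at least 2 of the 3 markers, and 328 and 283 without the 7.5% of barcodes with the most UMIs. They were 82 and 65 with at least 3 Shh UMIs and 186 and 182 without cells past another type's limit, where 87 of the higher and 104 of the lower genes were among those first called. Fewer genes reach the minimum in the smaller sets. C1qa went below 0, with log2 ratios of -0.31 (2 markers), -0.48 (3 Shh UMIs) and -0.92 (no other types). So did Mrc1, at -1.57 without cells holding 3 or more non-epithelial genes and -0.24 without other types, and Wfdc21, at -0.48 with 3 Shh UMIs. The C1qa values with 2 markers and with 3 Shh UMIs and that of Wfdc21 are what equal numbers of UMIs in both libraries give, from the unlike totals alone. The UMIs behind the others are not given here, so none of these values is read as a fall. Of 309 values of single named genes, 183 moved little, 120 moved and these 6 changed sign. Of 447 medians of gene lists, 407 moved little and 40 moved, and 12 of 32 lists lay above 0 as reported and 11 to 18 under the alternatives. Over the same genes after thinning to 1000 UMIs, chosen after seeing the data, the median of hedgehog production and release went from -1.04 to -0.31 and that of WNT inhibitors from -0.89 to -0.50. The thinned TP sum is the smaller, so the 1 UMI added to each sum moves genes with few UMIs upward. Its part in these changes was not tested.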
